A study of Mus musculus with 12 samples.

Results

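The serpins of mouse liver were followed here as 1 gene family: every gene of the deposited count table whose symbol begins with Serpin, a clade letter from a to i and a number, provided that its counts summed to at least 10 over the 12 libraries. Of 24421 genes in the table, 63 carried such a symbol and 43 passed the sum. The 43 were sorted by where they are known to act. The groups were 18 serpins of blood plasma that hepatocytes make, 8 clade B serpins that stay inside cells, and 17 tissue and other serpins. Counted among the 18 is Serpina4-ps1, which is annotated as a pseudogene without a coding transcript. Enough counts for a test were present for 35 of them, namely all 18 plasma serpins, 5 clade B serpins and 12 tissue and other serpins. The 8 without a test were Serpinb7, Serpinb9b, Serpinb10, Serpina5, Serpina3a, Serpina3i, Serpina3j and Serpine3.

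Polyadenylated RNA was sequenced from liver tissue without tumour of male mice killed at 4 months of age, with 3 separate mice in each of 4 groups. The groups were LiKM mice on a diet with 0.06% ACR, LiKM mice on a normal diet, LiK mice on the ACR diet and LiK mice on a normal diet, where the ACR diet began at 5 weeks. From what is known of the study, and not from its labels, LiKM mice are, unlike LiK mice, meant to lack Mdm2, which degrades p53, in hepatocytes, and ACR is an acyclic retinoid. Which promoter drives the deletion is not given in the labels.

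Serpins are proteins with a common fold in which an exposed reactive centre loop serves as bait. A protease that cuts the loop is carried across the molecule and trapped, so each molecule of inhibitor is used once. Some members have lost inhibition and carry hormones or fold other proteins instead. Hepatocytes secrete much of the serpin of plasma, which restrains coagulation, fibrinolysis, complement and neutrophil elastase, while clade B serpins protect cells from their own proteases. In mice the human genes SERPINA1 (alpha-1-antitrypsin) and SERPINA3 (alpha-1-antichymotrypsin) each correspond to several close copies on chromosome 12, where 24 of the 43 members lie.

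The copies differ more in the loop than in the rest of the coding sequence. The 5 coding sequences of Serpina1a to Serpina1e were 96.3% to 98.5% identical over the 10 pairs, and 18 of 75 bases of the loop varied (24%), against 68 of the other 1164 bases (5.84%). The loops are shown because they are the bait that proteases cut. They run 5′ to 3′ on the coding strand, from the hinge onwards, from GENCODE M21 transcripts on GRCm38 (mm10), and capitals mark the bases that are not the same in all 5 copies. All 5 genes lie on the minus strand, from Serpina1b at chr12:103728156-103830373, whose model spans Serpina1d at chr12:103763594-103773592, through Serpina1a at chr12:103853589-103863562 and Serpina1c at chr12:103894926-103904887 to Serpina1e at chr12:103946931-103958975.
Serpina1a: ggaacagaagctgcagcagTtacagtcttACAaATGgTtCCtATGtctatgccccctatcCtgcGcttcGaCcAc
Serpina1b: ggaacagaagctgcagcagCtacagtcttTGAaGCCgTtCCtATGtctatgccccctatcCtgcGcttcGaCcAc
Serpina1c: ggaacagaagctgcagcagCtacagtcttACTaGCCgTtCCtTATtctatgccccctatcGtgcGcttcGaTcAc
Serpina1d: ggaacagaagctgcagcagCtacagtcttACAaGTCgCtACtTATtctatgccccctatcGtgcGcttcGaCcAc
Serpina1e: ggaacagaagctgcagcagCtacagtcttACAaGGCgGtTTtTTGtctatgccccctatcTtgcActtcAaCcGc

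The loops of 4 Serpina3 copies are shown because these genes are counted apart below. In the next sequences, from the same annotation, capitals mark the 15 bases of the hinge. Serpina3k lies at chr12:104338486-104346144 on the plus strand, inside the model of Serpina3m at chr12:104338486-104394257, Serpina3n follows at chr12:104406729-104414329, and Serpina3c lies on the minus strand at chr12:104146382-104153870.
Serpina3k: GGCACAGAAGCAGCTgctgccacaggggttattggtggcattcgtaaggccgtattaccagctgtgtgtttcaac
Serpina3m: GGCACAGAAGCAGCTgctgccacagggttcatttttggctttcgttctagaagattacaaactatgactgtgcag
Serpina3n: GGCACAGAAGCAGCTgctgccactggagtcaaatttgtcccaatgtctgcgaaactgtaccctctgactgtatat
Serpina3c: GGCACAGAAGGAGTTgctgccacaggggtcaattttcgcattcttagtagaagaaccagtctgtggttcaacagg

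Because of this likeness, a read of some members can match more than 1 gene. Words of 50 bases were taken from each member's annotated coding transcripts and sought in the transcripts of other genes. Another gene held 74.2% of them for Serpina1c, 57.6% for Serpina1a, 50.9% for Serpina1d, 34.6% for Serpina1e and 29.5% for Serpina1b. The share was 19.1% for Serpina3m, 14.0% for Serpina3k and 6.90% for Serpina3n. It was 36.9% for Serpina11, where the other gene was Gm28577. By contrast it was 3.07% for Serpinb6b, 1.52% for Serpinb6a and 0.378% for Serpinb9. Over 5% was shared by 12 of the 41 members with an annotated coding transcript, which the pseudogenes Serpina4-ps1 and Serpina3h lack. With words of 100 bases it was 7 of 41, and the share was 58.5% for Serpina1c, 42.8% for Serpina1a, 29.3% for Serpina1d, 14.8% for Serpina1b, 14.4% for Serpina1e, 6.09% for Serpina3m, 4.85% for Serpina3k and 0.204% for Serpina3n. Values that were not whole in at least 11 of the 12 libraries were found for 10 members, all of them Serpina1 or Serpina3 copies. Such values did not follow the shared words in every member: Serpina11 was whole in all 12 libraries, while Serpina3a was not whole in 8, Serpinb6a in 7 and Serpind1 in 5. Each value of a single copy is uncertain, and sums over the Serpina1 and Serpina3 copies are given for the strain comparisons and the diet comparisons.

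All 43 members together took 3.57% ± 0.27 of the counts in LiKM and 4.99% ± 0.77 in LiK livers under the normal diet, and 4.24% ± 0.23 in LiKM and 3.87% ± 0.77 in LiK livers under ACR (SD, n = 3 each). Serpina1a to Serpina1e alone took 2.20% ± 0.22 of the counts in LiKM mice and 3.10% ± 0.53 in LiK mice on the normal diet. Per kilobase of the main transcript, the mean over the 12 libraries, in CPM (counts scaled to a library of 1e6) per kb, was 4651 for Serpina1c, 4398 for Serpina3k, 3781 for Serpina1a, 3749 for Serpina1b, 3037 for Serpina1d and 1994 for Serpina1e. Serpina1c and Serpina3k did not differ beyond their spread, with 6070 ± 899 and 6783 ± 1381 CPM per kb in LiK mice on the normal diet (SD, n = 3). The next level, 590 CPM per kb, belonged to Serping1, the C1 inhibitor of complement. It was followed by Serpina3m at 526, Serpinf2 (antiplasmin) at 336, Serpinc1 (antithrombin) at 334 and Serpinf1 (pigment epithelium-derived factor) at 280.4 CPM per kb. The lowest plasma serpins, Serpina10 at 52.3 and Serpina7 at 41.1 CPM per kb, lay next to the tissue and other serpins Serpina12 at 36.2, Serpina3g at 28.8 and Serpina3c at 19.0 CPM per kb. In LiK mice on the normal diet Serpina12 averaged 39.1 and Serpina7 11.1 CPM per kb. Further down came 10.4 CPM per kb for Serpinb6a, 8.83 for Serpinh1, 3.58 for Serpinb9, 1.79 for Serpinb6b and 0.171 for Serpini1.

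Totals ran from 10124813 to 18647156 counts per library. Mdm2 was counted at 29.0 to 35 CPM in LiKM and 23.4 to 25.8 CPM in LiK mice under the normal diet, and at 31.8 to 67.2 CPM in LiKM and 21.6 to 23.5 CPM in LiK mice on ACR. A count over the whole gene does not check a deletion of some exons. The p53 target Cdkn1a was at 15.1 CPM or more in each LiKM library and at 6.97 CPM or less in each LiK library, so it separated the strains as labelled. Hepatocyte markers summed to 97347 to 111013 CPM in LiKM and 129768 to 176773 CPM in LiK mice on the normal diet, without overlap, and to 135379 to 171710 CPM in LiKM and 162400 to 173139 CPM in LiK mice on ACR. All 10 biliary markers rose in LiKM mice on the normal diet, with sums of 614 to 1059 CPM in LiKM and 55.3 to 69.5 CPM in LiK mice, and no marker of the list was at 0 in all libraries of a group. T and NK cell markers, of which 8 of 9 tested rose, summed to 8.34 to 15.7 CPM in LiKM and 1.69 to 2.43 CPM in LiK mice. Macrophage, B and plasma cell and endothelial markers each had 1 gene that rose, of 10, 6 and 8 tested. The animal identifiers begin with MP in LiK normal-diet mice 2 and 3 and LiKM ACR mouse 3, and with KM in the other 9. In tissue libraries, fewer cells of a type and less RNA per cell cannot be told apart.

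On the normal diet 8 of 18 plasma serpins were called lower and 1 higher in LiKM livers, and 3 of 5 tested clade B serpins were called higher. In the quasi-likelihood test of edgeR, with p-values adjusted by Benjamini and Hochberg's method over the 13880 genes tested, 13 of 35 serpins passed an adjusted p of 0.05, 5 of them higher and 8 lower in LiKM mice, against 21.8% of all genes tested (13.2% higher, 8.61% lower). "Rose", "fell" and "changed" are used below for this threshold. All 8 that fell were plasma serpins, 17 of the 18 plasma serpins had a negative fold change, and their median log2 fold change was -0.50 against 0.02 over all genes. Without the 8 Serpina1 and Serpina3 copies, and with those copies summed in the table, 9 of the 10 other plasma serpins had a negative fold change, 3 were called lower and their median was -0.27. Of the 5 that rose, 3 were clade B serpins, Serpini1 was a tissue serpin and Serpina7 was the only plasma serpin. The libraries of LiKM and LiK mice did not overlap for 6 serpins that were higher and 9 that were lower, against 20.7% and 19.4% of all genes tested (40.1% in either direction).

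**Figure D1:**
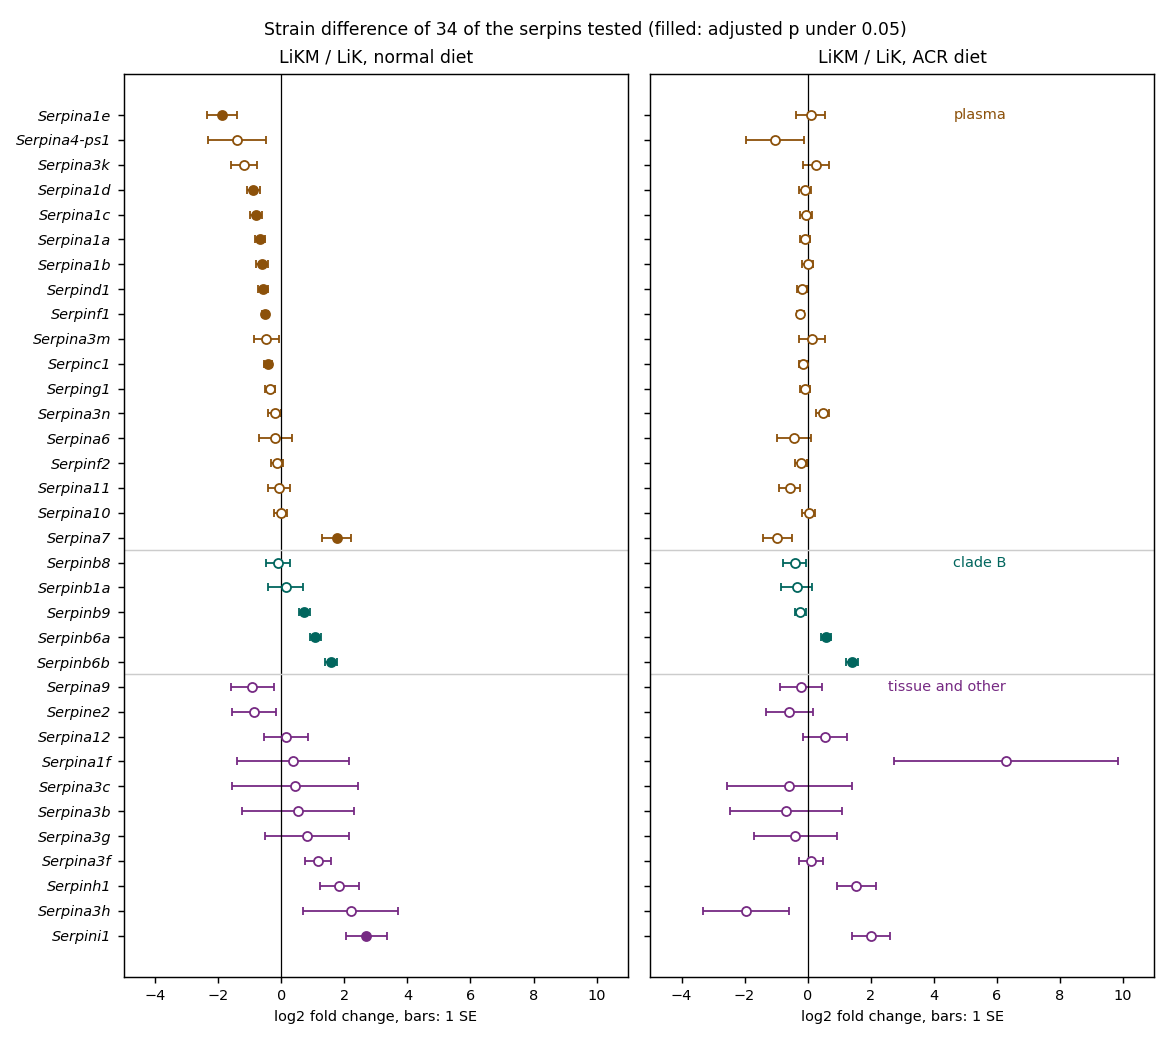
Log2 fold change of LiKM over LiK for 34 of the 35 serpins tested, on the normal diet (left) and on ACR (right), with plasma serpins at the top, clade B serpins in the middle and tissue and other serpins at the bottom. Points are edgeR estimates, bars are 1 SE and filled points passed an adjusted p of 0.05: 13 on the normal diet, where 17 of 18 plasma serpins lie left of 0, and 2 on ACR.

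The 5 copies of alpha-1-antitrypsin, the main plasma inhibitor of neutrophil elastase in humans, all fell. Serpina1a had 4162, 5162 and 4365 CPM in LiKM mice, against 7484, 6372 and 8133 CPM in LiK mice. Serpina1d had 2771, 3512 and 2842 CPM in LiKM mice, against 5367, 4933 and 6609 CPM in LiK mice. For both copies, each LiKM library lay below each LiK library. The log2 fold change of Serpina1d was -0.89 (SE 0.20, adjusted p = 0.0102, edgeR) and that of Serpina1a was -0.68 (SE 0.17, adjusted p = 0.0138). Serpina1c averaged 4728 ± 515 CPM in LiKM and 8261 ± 1224 CPM in LiK mice, and Serpina1b averaged 5190.2 ± 357 CPM in LiKM and 7921 ± 1573 CPM in LiK mice (SD, n = 3 each), with log2 fold changes of -0.81 (adjusted p = 0.0160, edgeR) and -0.61 (adjusted p = 0.0332, edgeR). Summed into 1 row, the Serpina1 copies fell by 0.88 on the log2 scale (SE 0.21, adjusted p = 0.0122, edgeR). This row also holds Serpina1f, counted here with tissue and other serpins, at 8.95 CPM or less in each library. Serpina1e, described next, averaged 1684 CPM in LiKM and 6242 CPM in LiK mice, of 19208 and 35390 CPM for Serpina1a to Serpina1e. The sum was not tested without Serpina1e, without single libraries or with the identifier prefix in the model. The call was lost without LiK mouse 3 for Serpina1a (adjusted p = 0.0553), Serpina1b (0.124) and Serpina1c (0.0634), without LiKM mouse 1 for Serpina1b (0.0908) and Serpina1c (0.0533), and for Serpina1b also without LiKM mouse 2 or 3 (0.0546 each) or LiK mouse 1 (0.0939). Serpina1d kept it in each of these fits.

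Serpina1e stood apart from the other copies. It had 1419.8, 2171 and 1462 CPM in LiKM mice, against 2429, 7098 and 9198 CPM in LiK mice. LiK mice 2 and 3 were thus far above the other 4 libraries, while LiK mouse 1 lay just above the highest LiKM mouse. The log2 fold change was -1.89 (SE 0.48, adjusted p = 0.0190, edgeR). Serpina1e made up 22.3% and 21.5% of the Serpina1a to Serpina1e counts in LiK mice 2 and 3, the pair of this diet whose identifiers begin with MP. Its share was 7.73% in LiK mouse 1 and 7.73% to 10.1% in the LiKM mice. In LiKM ACR mouse 3, which also has an MP identifier, it was 11.7%, against 9.72% and 7.33% in LiKM ACR mice 1 and 2. With the prefix in the model the log2 fold change was -1.02 (adjusted p = 0.177, edgeR), and without LiK mouse 3 it was -1.50 (adjusted p = 0.0680). It was -1.78 without LiKM mouse 1 (adjusted p = 0.0613) and -1.81 without LiKM mouse 3 (adjusted p = 0.0601). Over the 12 libraries its share ran from 6.04% to 22.3%, against 19.0% to 27.6% for Serpina1a, 19.4% to 28.3% for Serpina1b, 22.5% to 25.9% for Serpina1c and 15% to 17.1% for Serpina1d.

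Of the Serpina3 group, the abundant Serpina3k had 6478, 8013 and 3763 CPM in LiKM mice, against 10860.2, 14552 and 16448 CPM in LiK mice. Each LiKM library lay below each LiK library, and the log2 fold change of -1.20 did not pass the threshold (SE 0.41, adjusted p = 0.0576, edgeR). It passed with LiKM mice paired by number (adjusted p = 0.0466), without LiKM ACR mouse 1 (0.0421) or without LiK ACR mouse 2 (0.0334). The labels give no such pairing, here or where it is used below. Serpina3k held 70.5% to 91.9% of the Serpina3 counts in the 12 libraries. Summed over its copies, the Serpina3 group fell by 1.07 on the log2 scale (SE 0.35, adjusted p = 0.0466, edgeR). Serpina3n, an acute phase inhibitor in mice, had 621, 465 and 338 CPM in LiKM mice, against 504, 466 and 675 CPM in LiK mice. The groups overlapped, as they did for Serpina3m with 929, 977 and 327 CPM in LiKM mice and 1318, 801 and 977 CPM in LiK mice.

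Of the plasma serpins that act on coagulation and fibrinolysis, Serpinc1 and Serpind1 fell. Serpinc1, which inhibits thrombin and factor Xa, had 1370.3, 1493 and 1253 CPM in LiKM mice, against 1936, 1735 and 1882 CPM in LiK mice. Serpind1, heparin cofactor II, had 413, 501 and 388 CPM in LiKM mice, against 699, 524 and 723 CPM in LiK mice. The LiKM libraries lay below the LiK libraries for both genes. Serpinc1 fell by 0.43 on the log2 scale (SE 0.12, adjusted p = 0.0270, edgeR) and Serpind1 fell by 0.58 (SE 0.16, adjusted p = 0.0269). Both calls were lost without LiKM mouse 1 (adjusted p = 0.0629 for Serpinc1 and 0.0763 for Serpind1), LiKM mouse 3 (0.0636 and 0.0729), LiK mouse 1 (0.0882 and 0.0912) or LiK mouse 3 (0.0774 and 0.0968). Serpina10, which inhibits factor Xa with protein Z, averaged 179 ± 43.9 CPM in LiKM and 180.5 ± 3.92 CPM in LiK mice (SD, n = 3 each). Serpinf2 averaged 618 ± 118 CPM in LiKM and 684 ± 113 CPM in LiK mice, and neither passed (adjusted p = 0.966 for Serpina10 and 0.607 for Serpinf2, edgeR). Serping1 averaged 836 ± 177 CPM in LiKM and 1071 ± 131 CPM in LiK mice, with a log2 fold change of -0.36 (adjusted p = 0.129, edgeR). It passed without LiKM mouse 2, the highest of its group (adjusted p = 0.0304, edgeR), or with LiKM mice paired by number (0.0370).

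Serpinf1, which does not inhibit proteases and acts against vessel growth, had the smallest adjusted p among those that fell. It had 413, 445 and 405 CPM in LiKM mice, against 628, 620.3 and 564 CPM in LiK mice. The groups were far apart relative to their spread, and the log2 fold change was -0.52 (SE 0.10, adjusted p = 0.00597, edgeR). Serpina6, the carrier of corticosterone, averaged 268 ± 112 CPM in LiKM and 305 ± 84.7 CPM in LiK mice (SD, n = 3 each), and the groups overlapped.

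Serpina7, the thyroxine-binding globulin and also no inhibitor, went the other way. It had 56.8, 50.4 and 155 CPM in LiKM mice, against 26.1, 32.2 and 19.3 CPM in LiK mice. Each LiKM library lay above each LiK library, LiKM mouse 3 by most. The log2 fold change was 1.75 (SE 0.47, adjusted p = 0.0250, edgeR). It was 1.03 without LiKM mouse 3 (adjusted p = 0.0874), 1.75 without LiK mouse 1 (adjusted p = 0.0760) and 1.58 without LiK mouse 3 (adjusted p = 0.0878).

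**Figure D2:**
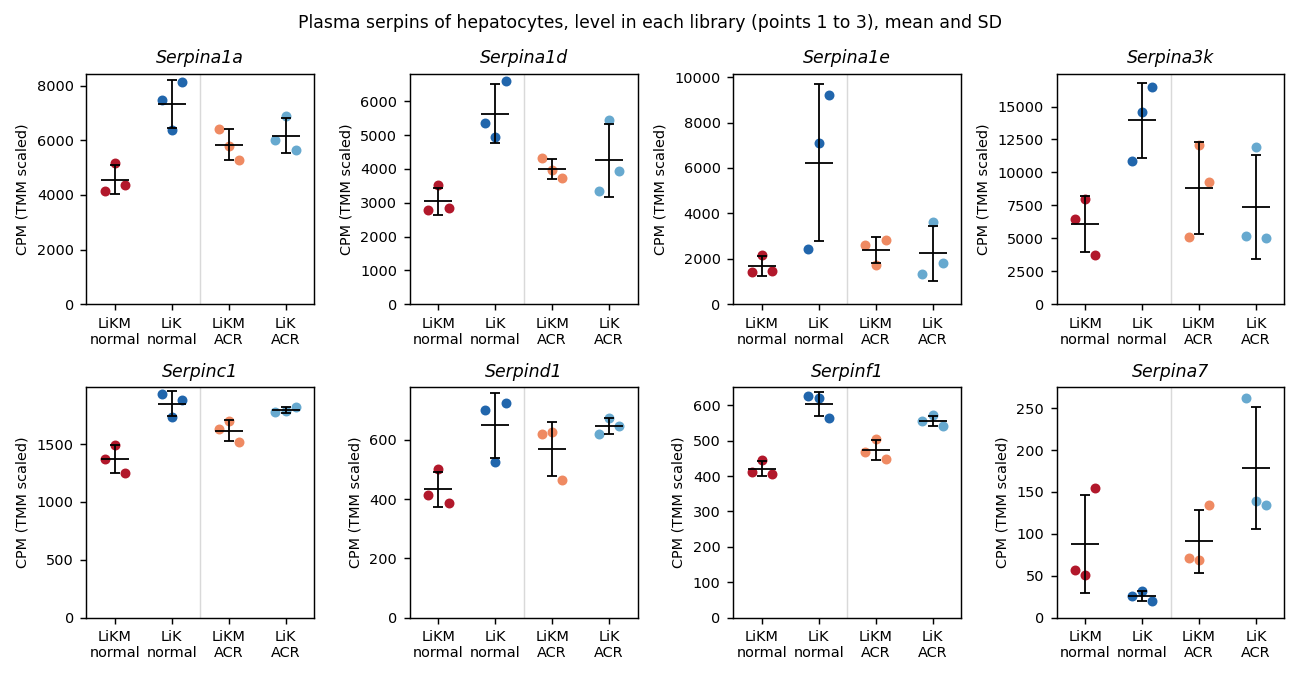
Level of 8 plasma serpins in each library, in TMM-scaled CPM, for LiKM and LiK mice on the normal diet (left of the grey line) and on ACR (right of it). Points are mice 1 to 3, and bars give the mean and SD of 3 mice: on the normal diet the LiKM libraries lie below the LiK libraries in 7 panels and above them for Serpina7.

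The scaling of libraries mattered for the plasma serpins. With library size alone, without TMM factors, the median over all genes on the normal diet moved to a log2 fold change of 0.40, that of the plasma serpins was -0.12, 11 of 18 lay below 0 and 2 were called lower. Serpina1d and Serpina1e kept their call, with log2 fold changes of -0.50 and -1.53, while Serpinc1 had -0.04 and Serpinf1 had -0.13. Of the calls over all genes, 97.6% were then higher in LiKM mice. The plasma median lay below the median of all genes under both scalings. A scaling factor moves all genes by about the same amount, so this gap cannot check the scaling. The median log2 fold change of 11 hepatocyte markers with TMM factors was -0.49, of which 1 fell, close to the -0.50 of the plasma serpins. The part of this shared shift in the serpin values was not tested.

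Of the 5 tested clade B serpins, Serpinb6a, Serpinb6b and Serpinb9 rose, and Serpinb8 and Serpinb1a did not pass. Serpinb6b and Serpinb6a are mouse relatives of human SERPINB6, an inhibitor of cathepsin G and other serine proteases in the cytosol. Serpinb6b had 6.06, 5.42 and 6.12 CPM in LiKM mice, against 1.97, 1.92 and 2.01 CPM in LiK mice. Serpinb6a had 21.4, 20.1 and 23.9 CPM in LiKM mice, against 7.75, 12.3 and 10.7 CPM in LiK mice. Both were higher in each LiKM library than in each LiK library, with a tight spread for Serpinb6b. Serpinb6b rose 2.98-fold (log2 1.57, SE 0.19, adjusted p = 0.000437, edgeR) and Serpinb6a rose 2.12-fold (log2 1.08, SE 0.16, adjusted p = 0.00127). These calls held in all alternatives tried, and the summed Serpinb6 copies had a log2 fold change of 1.17 (adjusted p = 0.000397, edgeR). Serpinb6b lies at chr13:32965209-32979067 on the plus strand and Serpinb6a at chr13:33917918-34002794 on the minus strand of mm10.

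Serpinb9 inhibits granzyme B, the protease that cytotoxic lymphocytes deliver to target cells. It had 13.0, 15.6 and 14.2 CPM in LiKM mice, against 9.86, 6.85 and 9.04 CPM in LiK mice. The groups did not overlap, and Serpinb9 rose 1.66-fold (log2 0.73, SE 0.19, adjusted p = 0.0176, edgeR). The call was lost without LiKM mouse 2 (adjusted p = 0.0525) or LiK mouse 2 (adjusted p = 0.0615). Serpinb8, a furin inhibitor, averaged 3.24 ± 1.15 CPM in LiKM and 3.45 ± 0.796 CPM in LiK mice (SD, n = 3 each), and Serpinb1a, an inhibitor of neutrophil proteases, averaged 0.516 ± 0.110 CPM in LiKM and 0.446 ± 0.256 CPM in LiK mice. Neither differed beyond its spread. T and NK cell, neutrophil and biliary markers were higher in the same LiKM livers, with summed neutrophil markers of 89.6 to 246 CPM in LiKM and 16.6 to 44.1 CPM in LiK mice. B and plasma cell markers summed to 4.38 to 19.2 CPM in LiKM and 3.52 to 4.30 CPM in LiK mice. The part of these cells in the clade B values was not tested.

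Among the tissue serpins, Serpini1 (neuroserpin), an inhibitor of tissue plasminogen activator known from the nervous system, rose at a very low level. It had 28, 15 and 11 counts in LiKM libraries, against 0, 5 and 3 counts in LiK libraries, or 1.68, 1.06 and 0.875 CPM in LiKM and 0, 0.283 and 0.251 CPM in LiK mice. Each LiKM library lay above each LiK library, with a log2 fold change of 2.69 (SE 0.65, adjusted p = 0.0138, edgeR) that depends on the small count the fit adds. Serpinh1, the collagen chaperone HSP47, had 74.1, 24.7 and 9.62 CPM in LiKM mice, against 6.27, 16.2 and 7.62 CPM in LiK mice. LiKM mouse 1 was far above the rest and the groups overlapped (log2 fold change 1.84, SE 0.62, adjusted p = 0.0574, edgeR). Serpinh1 passed without LiKM mouse 3, the lowest of its group (log2 fold change 2.26, adjusted p = 0.0150, edgeR). It also passed without LiK mouse 2, the highest of its group (2.38, adjusted p = 0.0477). Both fits leave out a mouse that made the groups overlap, so these passes are no support. Stellate markers, the cells that make most liver collagen, summed to 322 to 664 CPM in LiKM and 212 to 477 CPM in LiK mice, with 3 of 9 higher.

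Serpine2 (protease nexin-1), an inhibitor of thrombin, had 17.9, 9.79 and 0.875 CPM in LiKM mice, against 10.3, 23.8 and 19.0 CPM in LiK mice, with a wide spread in LiKM livers. The groups overlapped and the difference did not pass (log2 fold change -0.87, adjusted p = 0.407, edgeR).

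The members that follow did not pass and their groups overlapped on the normal diet. Serpina3f had 5.22, 3.66 and 1.83 CPM in LiKM mice, against 1.20, 2.04 and 1.59 CPM in LiK mice (log2 fold change 1.15, SE 0.41, adjusted p = 0.0669, edgeR). It passed without LiKM mouse 3, the lowest of its group (adjusted p = 0.0271, edgeR), or with LiKM mice paired by number (0.0392). Serpina12, the adipokine vaspin, averaged 159 ± 96.6 CPM in LiKM and 144 ± 29.9 CPM in LiK mice (SD, n = 3 each). The pseudogene Serpina4-ps1, counted here with the plasma serpins, averaged 72.5 ± 58.0 CPM in LiKM and 191 ± 97.9 CPM in LiK mice, with log2 fold change -1.40 (adjusted p = 0.307). Serpina11 averaged 103 ± 30.8 CPM in LiKM and 109 ± 26.9 CPM in LiK mice. Serpina9, known from germinal centre B cells in humans, ran from 0.318 to 3.92 CPM over the 12 libraries, the pseudogene Serpina3h from 0.423 to 19.4 CPM, and Serpina1f from 0 to 8.95 CPM.

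**Figure D3:**
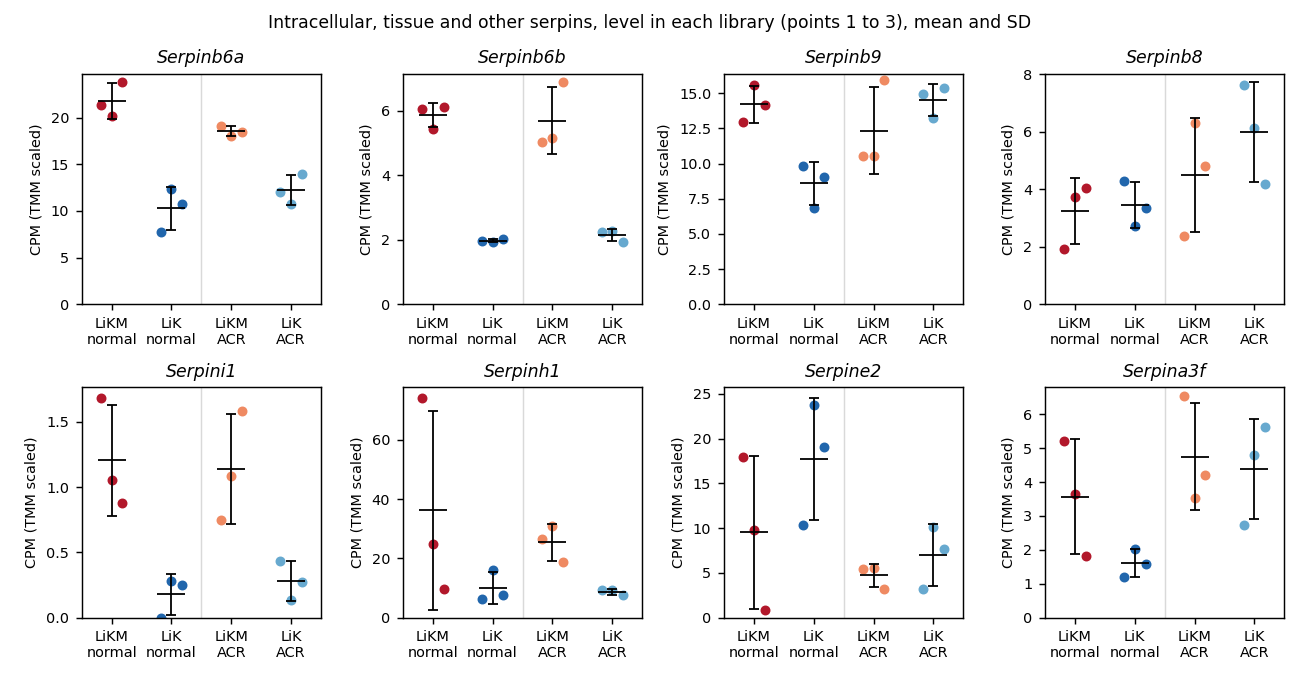
Level of 4 clade B and 4 tissue or other serpins in each library, in TMM-scaled CPM, for LiKM and LiK mice on the normal diet (left of the grey line) and on ACR (right of it). Points are mice 1 to 3, and bars give the mean and SD of 3 mice: Serpinb6a, Serpinb6b and Serpini1 are higher in each LiKM library than in each LiK library on both diets.

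On the ACR diet Serpinb6a and Serpinb6b were again higher in LiKM livers, and none of the plasma serpins was called. Of 35 serpins, 2 rose and 0 fell, against 9.79% of all genes tested (5.55% higher, 4.24% lower). Serpinb6b had 5.04, 5.15 and 6.89 CPM in LiKM mice, against 2.24, 2.26 and 1.92 CPM in LiK mice, and rose 2.66-fold (log2 1.41, SE 0.19, adjusted p = 0.00302, edgeR). Serpinb6a had 19.1, 18 and 18.4 CPM in LiKM mice, against 12, 10.8 and 14.0 CPM in LiK mice, and rose 1.51-fold (log2 0.60, SE 0.16, adjusted p = 0.0378). Again each LiKM library lay above each LiK library for both. The call of Serpinb6a was lost without LiKM mouse 1, 2 or 3 (adjusted p = 0.0814, 0.0737 and 0.0673), LiK mouse 1 or 2 (0.109 and 0.149) or LiK normal-diet mouse 3 (0.0556). The call also did not hold when counts were scaled by library size only (0.0503), when the prefix of the sample identifier entered the model (0.0716) and, like that of Serpinb6b, with a clock component in the model (0.780 for Serpinb6a and 0.764 for Serpinb6b), where 0 of all genes were called. T and NK cell markers summed to 13.7 to 25.6 CPM in LiKM and 3.24 to 8.09 CPM in LiK mice on ACR. Sums did not overlap either for neutrophil markers (95.0 to 393 CPM in LiKM and 32.7 to 66.1 CPM in LiK mice), macrophage markers (484 to 528 CPM in LiKM and 237 to 478 CPM in LiK mice), B and plasma cell markers (13.1 to 17.5 CPM in LiKM and 7.28 to 10.1 CPM in LiK mice) and stellate markers (428 to 587 CPM in LiKM and 262 to 375 CPM in LiK mice). The part of these cells in the Serpinb6 values was not tested. The clock component was -6.12 to -0.31 in LiKM and 3.20 to 4.16 in LiK mice on ACR. Strain and clock phase thus cannot be told apart on this diet.

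None of the 18 plasma serpins was called on ACR, where 2 had an unadjusted p under 0.05 in edgeR and 1 was called lower by DESeq2. Their median log2 fold change was -0.09, against 0.02 over all genes. Serpina1a had 6431, 5801 and 5285 CPM in LiKM mice, against 5999, 6901 and 5631 CPM in LiK mice, and the groups overlapped. Summed copies had log2 fold changes of -0.04 for Serpina1 (adjusted p = 0.931, edgeR) and 0.24 for Serpina3 (adjusted p = 0.689). Serpinf1 had 467, 504 and 448 CPM in LiKM mice, against 556, 572 and 542 CPM in LiK mice. Its groups did not overlap, and its log2 fold change of -0.23 had an adjusted p of 0.170 in edgeR. Serpina3n had 632, 793 and 609 CPM in LiKM mice, against 471, 519 and 476 CPM in LiK mice, with a log2 fold change of 0.47 (SE 0.21, adjusted p = 0.172, edgeR). LiKM libraries were above LiK libraries for 5 serpins and below for 3, against 17.2% and 16% of all genes tested (33.3% in either direction).

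On ACR 0 of 12 tested tissue and other serpins were called. Serpini1 had 0.746, 1.08 and 1.59 CPM in LiKM mice, against 0.433, 0.133 and 0.274 CPM in LiK mice, again without overlap (log2 fold change 2.01, SE 0.61, adjusted p = 0.0580, edgeR), and it passed without LiK normal-diet mouse 1 (adjusted p = 0.0322). Serpinh1 had 26.7, 31.0 and 18.7 CPM in LiKM mice, against 9.23, 9.32 and 7.61 CPM in LiK mice, without overlap (log2 fold change 1.54, SE 0.62, adjusted p = 0.140, edgeR), and it passed without LiKM normal-diet mouse 1 (adjusted p = 0.0455). Serpine2 had 5.41, 5.49 and 3.23 CPM in LiKM mice, against 3.24, 10.1 and 7.68 CPM in LiK mice, and the groups overlapped. Biliary markers summed to 352 to 551 CPM in LiKM and 52.4 to 206 CPM in LiK mice on ACR, with 9 of 10 higher.

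ACR against normal diet gave 0 called serpins in either strain with edgeR. In LiK mice the background was 0.195% of genes (0.13% higher, 0.0648% lower), 5 of 35 serpins had an unadjusted p under 0.05 (14.1% of all genes) and DESeq2 called 4. In LiKM mice the background was 0%, 3 of 35 serpins had an unadjusted p under 0.05 (7.24% of all genes) and DESeq2 called 0. The strain comparisons on the 2 diets and the diet comparisons in the 2 strains use the same libraries.

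Serpina7 in LiK livers had the smallest p of the serpins in either diet comparison. It had 263, 139 and 134 CPM in LiK mice on ACR, against 26.1, 32.2 and 19.3 CPM in LiK mice on the normal diet. Each ACR library was above each normal-diet library, with a 6.88-fold difference (log2 2.78, SE 0.49, adjusted p = 0.0610, edgeR). In LiKM mice the levels were 70.5, 68.7 and 135 CPM on ACR and 56.8, 50.4 and 155 CPM on the normal diet, which overlapped. The difference of the diet effects was -2.72 on the log2 scale (SE 0.66, unadjusted p = 0.00178, adjusted p = 0.200, edgeR). In LiK mice Serpina7 passed without LiKM normal-diet mouse 3 (adjusted p = 0.0146) or LiKM ACR mouse 3 (adjusted p = 0.0475), libraries of the other strain that enter the estimate of the spread. With LiKM mice paired by number (a replicate block within LiKM), Serpina7 was called for diet in LiK mice (adjusted p = 0.00410), for the difference of diet effects (0.0263) and as lower in LiKM than in LiK mice on ACR (log2 fold change -1.04, 0.0444).

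The 5 libraries with 134 CPM or more of Serpina7 were the 3 LiK mice on ACR, LiKM normal-diet mouse 3 and LiKM ACR mouse 3. The same 5 had scores of -29.7 to -23.6 on the second principal component of all genes, and the other 7 had scores of 13.8 to 31.1. Dbp, a target of the circadian clock, was at 136 to 139 CPM in LiK mice on ACR and at 25.6 to 35.9 CPM in LiK mice on the normal diet. The first component of 16 clock genes was 3.20 to 4.16 in LiK mice on ACR and 0.18 to 0.54 in LiK mice on the normal diet, so diet and clock phase cannot be told apart in LiK livers. In LiKM mice on ACR it was -6.12 to -0.31. The LiKM mice among the 5 libraries, normal-diet mouse 3 and ACR mouse 3, scored 0.27 and -6.12. With that component in the model, Serpina7 had a log2 diet difference of 2.95 in LiK mice (adjusted p = 0.260, edgeR), a fit in which 0 genes were called.

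Other serpins of LiK livers did not pass for diet. Serpinb9 had 14.9, 13.3 and 15.4 CPM on ACR, against 9.86, 6.85 and 9.04 CPM on the normal diet, without overlap (log2 fold change 0.76, SE 0.19, adjusted p = 0.119, edgeR). With the block within LiKM it passed (adjusted p = 0.0280). LiK mice on ACR were thus at the level of LiKM mice on the normal diet for Serpinb9. In LiKM mice it had 10.6, 10.5 and 15.9 CPM on ACR, against 13.0, 15.6 and 14.2 CPM on the normal diet. Serpina3f had 2.74, 4.79 and 5.63 CPM on ACR, against 1.20, 2.04 and 1.59 CPM on the normal diet in LiK mice, without overlap (log2 fold change 1.43, SE 0.41, adjusted p = 0.162, edgeR, and 0.0356 with the block within LiKM). Serpine2 had 3.24, 10.1 and 7.68 CPM on ACR, against 10.3, 23.8 and 19.0 CPM on the normal diet in LiK mice, again without overlap (log2 fold change -1.33, SE 0.72, adjusted p = 0.436, edgeR). Serpina1e had 1314, 3616 and 1798 CPM on ACR, against 2429, 7098 and 9198 CPM on the normal diet, with overlap (adjusted p = 0.210, edgeR). Summed copies had log2 diet differences in LiK mice of -0.47 for Serpina1 (adjusted p = 0.335, edgeR) and -0.82 for Serpina3 (adjusted p = 0.322).

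In LiKM livers 16 of 18 plasma serpins were higher on ACR than on the normal diet, with a median log2 fold change of 0.33 against -0.01 over all genes, and none was called. Serpina1a had 6431, 5801 and 5285 CPM on ACR, against 4162, 5162 and 4365 CPM on the normal diet, without overlap (log2 fold change 0.36, SE 0.16, adjusted p = 0.695, edgeR). Summed copies had log2 diet differences in LiKM mice of 0.38 for Serpina1 (adjusted p = 0.786, edgeR) and 0.50 for Serpina3 (adjusted p = 0.880). In LiK livers the plasma median was -0.14, against 0.01 over all genes. The sign in LiK livers rests on the close copies: over the 10 plasma serpins that are not Serpina1 or Serpina3 copies, the medians were 0.17 in LiKM and 0.08 in LiK livers. The difference of the diet effects was called for 0 of 35 serpins, against 0.0072% of all genes, and 9 serpins had an unadjusted p under 0.05 (11.5% of all genes). DESeq2 called 1 of them, Serpina7. LiKM libraries on ACR and on the normal diet did not overlap for 6 serpins that were higher and 1 that was lower, against 3.94% and 6.7% of all genes (10.6% in either direction). In LiK mice these counts were 5 and 2, against 13.4% and 14.6% (28.1% in either direction).

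Several Serpina3 copies were high in some mice and nearly missing in others, within the same groups. Serpina3c had 46.3, 58.9 and 21.1 CPM in LiKM and 89.5, 2.15 and 1.51 CPM in LiK mice under the normal diet, and 113, 0.271 and 0.122 CPM in LiKM and 138, 0.932 and 32.7 CPM in LiK mice on ACR. It was thus at 21.1 CPM or more in 7 libraries and at 2.15 CPM or less in 5, and all 3 libraries with an MP identifier were among the 5. Serpina3g, which inhibits cathepsins inside cells, had 25.4 CPM or more in the same 7 libraries and 12.6 CPM or less in the same 5. Serpina3b had 0.795 to 17.4 CPM in the 7 and 0.407 CPM or less in the 5. The abundant Serpina3k went the other way, with 3763 to 10860.2 CPM in the 7 and 9248 to 16448 CPM in the 5. LiK normal-diet mice 2 and 3 are among the 5, and no LiKM normal-diet mouse is. The part of this split in the strain difference of Serpina3k was not tested.

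Serpina3a and Serpina3j, which entered no test, each appeared in 1 or 2 mice. Serpina3a was at 77.7 CPM in LiK ACR mouse 1 and at 0.493 CPM or less in the other 11 libraries. Serpina3j was at 76.3 CPM in LiK ACR mouse 1 and 32.7 CPM in LiK normal-diet mouse 3, and at 0.373 CPM or less elsewhere. Of its 50-base words, Serpina3a shared 0.0537% and Serpina3j 3.13% with other genes. The remaining members without a test reached at most 1.32 CPM in a library.

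**Figure D4:**
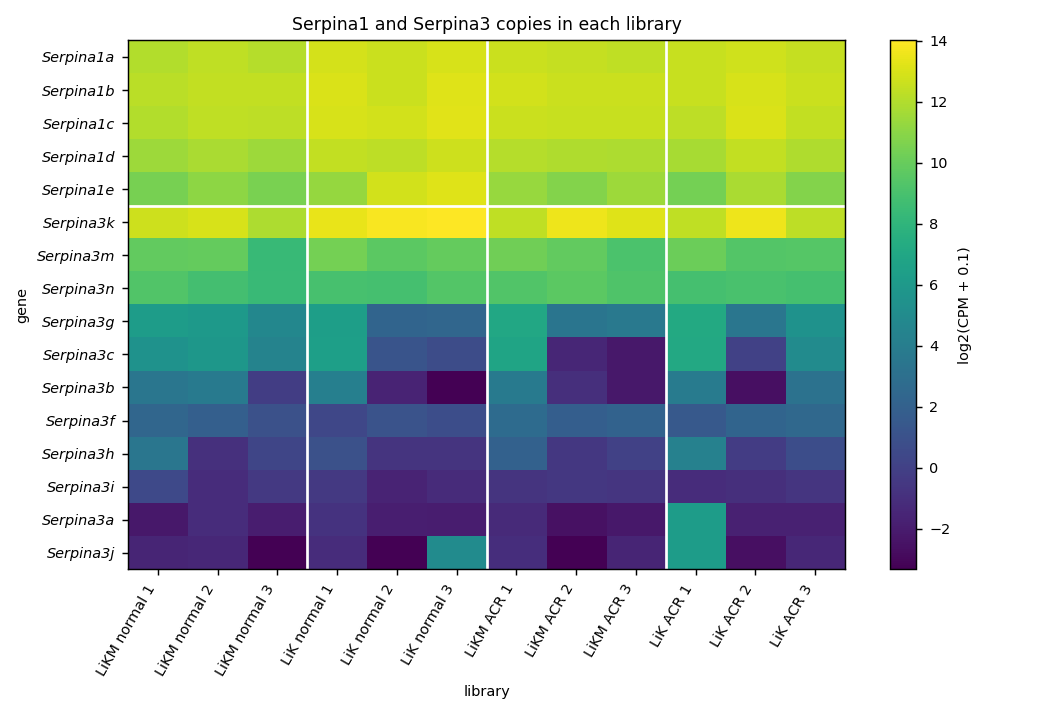
Level of the Serpina1 copies (above the horizontal line) and Serpina3 copies (below it) in each of the 12 libraries, as log2(CPM + 0.1), with groups divided by vertical lines. The Serpina1 rows are even apart from Serpina1e in LiK normal-diet mice 2 and 3, and Serpina3c, Serpina3b, Serpina3a and Serpina3j change from bright to dark between mice of 1 group.

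Promoters of the plasma serpins were read for GTTAAT, the conserved part of the site of HNF1, a liver transcription factor that is known to act on the human SERPINA1 promoter. The letters were searched on both strands in windows of 300 bases, from 250 before to 50 after the RefSeq start (GRCm38.p6), and 33 members matched a window. GTTAAT was found in 6 of the 12 plasma serpins with a window, namely Serpina1a to Serpina1e and Serpina7, in 1 of 7 clade B serpins (Serpinb8) and in 1 of 14 tissue and other serpins (Serpina3c). Of all 32851 windows 7.10% held it. The 5 Serpina1 windows belong to close copies and are not separate finds. Serpina7 was the only other plasma serpin with the motif, and 12 of the 18 plasma serpins had a window. The 5 Serpina1 copies share an unbroken run of 59 bases around the motif, shown with 100 bases of Serpina7 at chrX:139085254-139085353 on the minus strand because Serpina7 and the 5 copies moved in opposite directions on the normal diet. Both run 5′ to 3′, and capitals mark GTTAAT. A match is a description of these letters and was not tested as a site.
Serpina1a to Serpina1e: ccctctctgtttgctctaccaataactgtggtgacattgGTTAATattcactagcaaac
Serpina7: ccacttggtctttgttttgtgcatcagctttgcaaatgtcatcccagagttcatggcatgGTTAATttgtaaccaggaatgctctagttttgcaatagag

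The proteases that serpins inhibit were read from a list of 32 genes and their receptors and cofactors from a list of 13. On the normal diet 8 of 29 tested proteases rose and 10 fell in LiKM mice, and of 11 tested receptors and cofactors 2 rose and 3 fell, against 13.2% higher and 8.61% lower of all genes tested. The median log2 fold change was -0.29 for the proteases and -0.16 for the receptors and cofactors, against 0.02 over all genes. Among those that fell were proteases of plasma. F10, coagulation factor X, had 278, 309 and 252 CPM in LiKM mice, against 420.3, 392 and 427 CPM in LiK mice (log2 fold change -0.56, adjusted p = 0.00622, edgeR). Klkb1, plasma kallikrein, had 88.1, 159 and 115 CPM in LiKM mice, against 209.7, 196 and 229 CPM in LiK mice (log2 fold change -0.81, adjusted p = 0.00898). Tmprss6, a membrane protease of hepatocytes that limits hepcidin, fell by 0.49 on the log2 scale (adjusted p = 0.00758). In each case the LiKM libraries lay below the LiK libraries.

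Among the 8 proteases that rose were St14, Gzmb, Plat and Casp1. St14, the epithelial membrane protease matriptase, had 11.4, 11.8 and 13.8 CPM in LiKM mice, against 0.493, 0.509 and 0.586 CPM in LiK mice (log2 fold change 4.52, adjusted p = 0.000213, edgeR). Gzmb, the granzyme that Serpinb9 inhibits, had 0.420, 1.34 and 1.91 CPM in LiKM mice, against 0.141, 0.113 and 0.167 CPM in LiK mice (log2 fold change 3.05, adjusted p = 0.00800). Plat, the tissue plasminogen activator that Serpini1 inhibits, had 4.20, 2.47 and 2.23 CPM in LiKM mice, against 0.282, 0.905 and 0.167 CPM in LiK mice (log2 fold change 2.61, adjusted p = 0.0120). St14, Gzmb and Plat were each higher in every LiKM library than in every LiK library. Casp1, the caspase that processes interleukin-1 beta, had a log2 fold change of 1.19 (adjusted p = 0.00975), and Vldlr, a receptor that takes up protease and serpin complexes, one of 2.11 (adjusted p = 0.0103). On ACR, where 5.55% of all genes tested were higher and 4.24% lower, 2 proteases rose, St14 (log2 fold change 3.18, adjusted p = 0.00340, edgeR) and Plat (2.27, adjusted p = 0.0291), and Klkb1 fell by 0.85 on the log2 scale (adjusted p = 0.0156). The receptors and cofactors gave 0 calls there, and neither list gave a call in the diet comparisons.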

How the data were processed

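Libraries were made with a stranded mRNA kit, per the labels' protocols. The deposited table holds expected counts per gene symbol and library, of which 18.9% of the values above 0 are not whole (tolerance 1e-09). Per the submitters' processing notes the authors used featureCounts 2.0.0 and the build mm10. Not given in the sources used here are the aligner, the annotation, the strand setting and how reads shared between genes were counted. All 12 value columns matched a title.

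Expected counts were rounded to whole numbers. The function filterByExpr of edgeR, given the groups, removed genes with few counts, and TMM factors (0.830 to 1.243) scaled the libraries. The test was edgeR 4.0.16 quasi-likelihood (glmQLFit robust, glmQLFTest; R 4.3.3, limma 3.58.1) on all 12 libraries with 1 coefficient per group, Benjamini-Hochberg adjustment over all 13880 genes and a threshold of 0.05. The common biological coefficient of variation was 0.203. CPM values use the TMM factors. The scripts were tested on simulated data. Libraries of the same group differed by more than sampling noise in each pair (chi-square divided by its degrees of freedom 16.7 to 69.2). Gene positions, transcripts and shared words come from GENCODE M21, promoters from RefSeq.

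Alternatives were library size alone, DESeq2 1.42.0 size factors, the DESeq2 Wald test, no filter beyond a summed count of 10, only the groups compared, each library left out, replicate blocks, the identifier prefix as covariate, LiKM mice 3 left out on both diets, copies summed and, added later, a clock component as covariate. To check pairing, each mouse was expressed as its deviation from its group, and mice of equal number were correlated over genes. For LiKM mice on ACR and on the normal diet r was 0.37, 0.22 and 0.48. In the other comparisons it was -0.10 to 0.08. The labels give no pairing of these separate mice, so the block within LiKM rests on a likeness seen in these same data. Both LiKM mice 3 had scores of -29.7 and -24.6 on the second principal component, against 13.8 to 31.1 in the other LiKM mice. Members and gene lists were chosen with earlier results of these data known, so they support nothing independently. For members that did not pass, the alternatives named beside them are mostly those in which they passed. Such passes are not support for a difference. Values per library are given for most members past the threshold in any comparison and for some abundant plasma serpins. Serpina1b, Serpina1c, Serping1, Serpinf2, Serpina6 and Serpina10 are given by mean and SD. At most 8 listed proteases, receptors or cofactors are named per comparison, by smallest p. Serpinh1, Serpini1, Serpine2, Serpina3n, Serpina3f and the Serpina3 copies that varied between mice were added after their values were seen. The values of 1 tested member are not reported here, and it is counted in the totals over the family.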

Additional observations from a re-analysis of the deposited data

How the results depend on the processing

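Of 13 serpins called between LiKM and LiK on the normal diet, leaving out 1 library gave 6 (without LiK mouse 3) to 15, and it was 8 without LiKM mouse 1. Library size alone gave 9 (7 higher, 2 lower). On ACR the 2 calls became 1 with the identifier prefix or with library size alone, 1 with copies summed, where Serpinb6a and Serpinb6b form 1 row that was called (log2 fold change 0.75, adjusted p = 0.0100), 4 with the DESeq2 Wald test, 0 with the clock component, an alternative chosen after seeing the data under which 0 genes were called at all, and 1 to 3 with 1 library left out. For diet in LiK the 0 calls became 4 with the DESeq2 Wald test or only the groups compared, 3 without the LiKM mice 3, and 0 to 1 with 1 library left out. For diet in LiKM all alternatives gave 0. The difference of diet effects gave 1 with the DESeq2 Wald test. The replicate block within LiKM rests on a pairing that was read from these same data and is not in the labels. It gave 16, 3, 3, 0 and 1 calls in the 5 comparisons, and a replicate block over all 12 libraries gave 12, 2, 0, 0 and 0. Under the block within LiKM the calls for diet in LiK were Serpina7 (adjusted p = 0.00410), Serpinb9 (0.0280) and Serpina3f (0.0356), and Serpina7 was called for the difference of diet effects (0.0263). Over the 15 calls of single serpins and up to 23 alternatives, 284 of 335 values kept the call, 51 fell short of the threshold in the same direction and 0 reversed. This total does not measure how firm a call is. Leaving out a library of the other diet changes only the filter, the scaling and the estimate of the spread. On the normal diet, 8 or 9 plasma serpins were called lower without 1 ACR library. Without 1 normal-diet library it was 2 to 8. Counts of 28 or fewer, as for Serpini1, limit what depth could show.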
